A study of Mus musculus with 8 samples.

Results

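Efferocytosis is the engulfment of dying cells by phagocytes. The genes described here are 10 of its receptors, bridging ligands and brakes: the receptor tyrosine kinases Mertk, Axl and Tyro3, the bridging ligands Gas6, Pros1 and Mfge8, the engulfment receptors Lrp1 and Timd4, and the pair of Cd47 and its receptor Sirpa. Each was taken by its symbol from a table of 48607 loci assembled from aortic RNA-seq, and where a symbol stood on several rows (2 of the 10 genes) the row with the largest summed count was used. All 10 were found. In total, 9 of them reached at least 1 FPKM (a fragment count divided by transcript length and by the depth of its library) in at least 3 libraries and were tested among 20506 loci, and Timd4 did not reach that level.

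A dying cell exposes phosphatidylserine. Gas6 and Protein S (from Pros1) bind it and bridge to receptors among the tyrosine kinases Tyro3, Axl and MerTK, called the TAM receptors. Mfge8 bridges it to integrins, and Tim-4 (from Timd4) binds it directly. Lrp1 recognises calreticulin on the dying cell, and Cd47 on a healthy cell engages Sirpa on the phagocyte and holds engulfment back. In atherosclerosis, dying foam cells that are not cleared add to the necrotic core of the plaque, and MerTK and Mfge8 are known for their part in that clearance.

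The libraries came from entire aortas of mice that all lacked ApoE and all received Western diet, for 12 weeks by the study's methods. In total, 5 libraries were titled ApoE-/- and 3 were titled NPRC-/-ApoE-/-, so no library had intact ApoE or chow diet. The study's methods name 5 mice of each genotype for RNA-seq, more than the 3 libraries titled NPRC-/-ApoE-/- that were available here. NPRC, encoded by Npr3, is the natriuretic peptide clearance receptor. It was inactivated in C57BL/6 mice by a CRISPR/Cas9 frameshift in exon 1, and these mice were crossed with ApoE-/- mice. The methods give 8 weeks and male sex for purchased ApoE-/- mice and call the groups littermates, and the age and sex of the sequenced animals are not stated. The titles give only a genotype and a number, and the replicates were taken to be separate aortas.

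For 4 of the 8 libraries the title and the genotype entry conflicted. ApoE-/- 4 and ApoE-/- 5 were entered as NPRC-/-ApoE-/-, and NPRC-/-ApoE-/- 1 and NPRC-/-ApoE-/- 2 were entered as ApoE-/-. Groups below are those of the title, and the fold change of each tested gene is also given by genotype entry. Npr3 itself gave no check of either, since a frameshift need not lower the transcript: it lay between 0.62 and 1.69 FPKM in the libraries titled ApoE-/- and between 1.13 and 1.39 in those titled NPRC-/-ApoE-/-. Total counts ranged from 62969165 to 86693276 per library. In whole aorta, fewer cells of a type and less RNA per cell cannot be told apart.

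The 250 bases before the start sites of 4 of the genes are shown, the ligands Gas6 and Pros1 and the receptors Axl and Mertk. For Gas6 and Pros1 the same 4 ApoE-/- libraries lay above all NPRC-/-ApoE-/- libraries, and they also did for Mfge8, Lrp1 and Sirpa. For Axl and Mertk they did not. The windows are from RefSeq (GRCm38.p6), each 5′ to 3′ on the strand of its gene, and stop at the start site. They lie at chr8:13494536-13494785 on the minus strand (Gas6), chr16:62854057-62854306 on the plus strand (Pros1), chr7:25788734-25788983 on the minus strand (Axl) and chr2:128698665-128698914 on the plus strand (Mertk). Capitals mark the GC box, GGGCGG or its reverse complement CCGCCC.
Gas6: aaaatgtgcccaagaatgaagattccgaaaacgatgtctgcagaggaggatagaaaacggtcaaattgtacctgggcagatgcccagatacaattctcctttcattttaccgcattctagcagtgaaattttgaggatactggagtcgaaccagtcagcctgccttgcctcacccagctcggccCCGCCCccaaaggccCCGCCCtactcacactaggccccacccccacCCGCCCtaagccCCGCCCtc
Pros1: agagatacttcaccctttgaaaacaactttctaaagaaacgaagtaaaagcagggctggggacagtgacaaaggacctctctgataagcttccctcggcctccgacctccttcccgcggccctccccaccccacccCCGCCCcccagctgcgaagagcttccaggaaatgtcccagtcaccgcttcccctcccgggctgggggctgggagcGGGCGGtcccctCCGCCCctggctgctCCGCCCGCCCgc
Axl: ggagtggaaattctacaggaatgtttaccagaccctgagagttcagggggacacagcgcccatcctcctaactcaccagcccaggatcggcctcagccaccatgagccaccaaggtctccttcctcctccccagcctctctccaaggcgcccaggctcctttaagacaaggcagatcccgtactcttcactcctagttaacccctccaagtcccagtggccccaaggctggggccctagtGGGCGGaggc
Mertk: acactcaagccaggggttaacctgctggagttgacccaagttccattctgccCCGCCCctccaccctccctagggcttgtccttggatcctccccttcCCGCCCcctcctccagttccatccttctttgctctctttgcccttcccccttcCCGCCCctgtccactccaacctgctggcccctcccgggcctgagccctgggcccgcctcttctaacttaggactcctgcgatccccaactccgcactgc
The Gas6 window held 4 GC boxes, the Pros1 window 5 (of which 2 overlap), the Mertk window 3 and the Axl window 1. Among windows not shown, Mfge8 held 4, Tyro3 3, each window of Cd47 2, Lrp1 1 and Timd4 0. Of 32851 windows of the same length, 32.7% held at least 1 GC box and 8.47% held at least 3. None of the 4 windows shown held TATAAA or the nuclear receptor half-site AGGTCA on either strand, which 12.4% and 14.0% of all windows held. Windows were found for 9 of the 10 genes. These matches describe the letters of the windows, and their relation to the levels was not tested.

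Across the 5 libraries titled ApoE-/-, Lrp1 was the most abundant of the 10 transcripts (204.9 ± 52.8 FPKM, SD, n = 5), followed by Gas6 (133.0 ± 26.9), Mfge8 (90.9 ± 34.9) and Axl (69.5 ± 9.53). Cd47 (25.4 ± 3.82), Sirpa (19.4 ± 6.49) and Pros1 (17.5 ± 2.99) formed a middle range, and Mertk (7.35 ± 1.35), Tyro3 (1.20 ± 0.231) and Timd4 (0.492 ± 0.384) were low. The order of Mfge8 and Axl was not stable, with Mfge8 above Axl in 3 of 8 libraries, and neither was that of Sirpa and Pros1, with Sirpa above Pros1 in 4 of 8. Lrp1 exceeded Gas6, and Gas6 exceeded Mfge8, in 8 of 8 libraries, although the ranges of these neighbours overlapped.

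**Figure D1:**
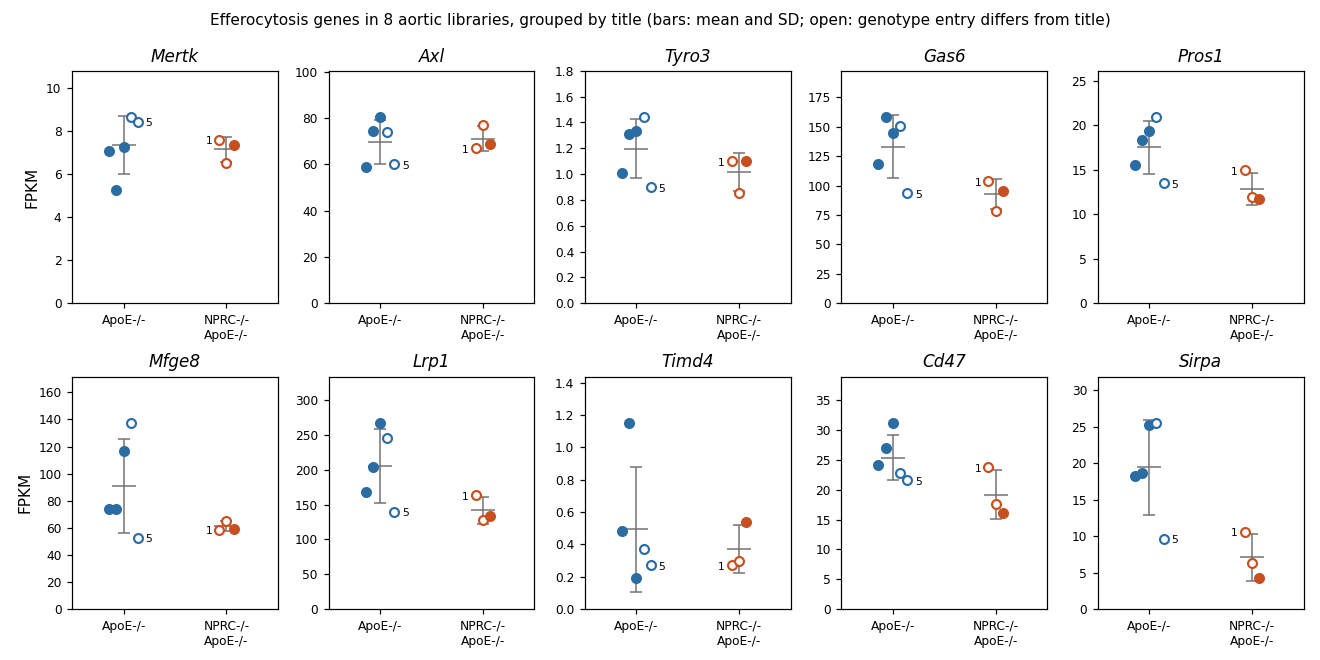
FPKM of the 10 genes (y axis, a separate scale from 0 for each gene) in the 8 libraries grouped by title, with group mean and SD as bars. Open circles mark the 4 libraries whose genotype entry differs from the title, and the numbers mark ApoE-/- 5 and NPRC-/-ApoE-/- 1, which lie next to each other for Sirpa at 9.63 and 10.62 FPKM.

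Levels of Mertk and Sirpa depended on the length by which the counts were divided. The length implied by count and FPKM was 1.20 to 1.26 times the merged exons of the GENCODE M21 annotation for 8 of the genes. For Mertk it was 5.98 times (25.9 kb against 4.34 kb of annotated exon) and for Sirpa 3.97 times (19.5 kb against 4.91 kb), and the assembled rows of these genes listed 7 and 6 transcripts with assembly names. In CPM (counts scaled to the library total) per kilobase of annotated exon, the ApoE-/- mean was 76.8 ± 25.2 for Sirpa and 43.9 ± 7.85 for Mertk, which placed both above Cd47 (30.5 ± 4.54) and Pros1 (21.01 ± 3.41). How many of the counts fell outside annotated exons was not measured. The choice of length does not enter the edgeR fold changes below, which were fitted to the counts. What counts outside annotated exons added to those fold changes was not tested.

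By title, 8 of the 9 tested genes had a lower estimate in NPRC-/-ApoE-/- aortas, Axl being the exception, beside 50.9% of all tested loci. The median log2 fold change was -0.44 for the 9 genes and -0.01 for all loci. Sirpa and Gas6 were lower at an unadjusted p under 0.05 and no gene was higher, where 7.13% of all loci were lower and 6.51% higher by the same rule. Sirpa alone also met the fold criterion of the study's methods (above 2 or below 0.5 with an unadjusted p under 0.05), which 2.39% of all loci met in the lower direction. After Benjamini-Hochberg adjustment over all loci, edgeR's quasi-likelihood test called 0 of the 9 genes and 0% of all loci (0 of 20506, of which 2797 had an unadjusted p under 0.05), whereas DESeq2 called 1 of the 9, Sirpa, and 650 loci. In no tested gene were the titled groups without overlap, a state in which the NPRC-/-ApoE-/- libraries lay lower for 3.69% of all loci.

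The counts turned on single libraries. Without ApoE-/- 5, 6 of the 9 genes had an unadjusted p under 0.05 (Gas6, Pros1, Mfge8, Lrp1, Cd47 and Sirpa), beside 18.7% of all loci in either direction. Without NPRC-/-ApoE-/- 1 there were 3 (Pros1, Cd47 and Sirpa), beside 21.6% of all loci. Without any one of ApoE-/- 2, ApoE-/- 3 or ApoE-/- 4 there was 1, Sirpa, beside 10.2 to 10.3% of all loci, and without NPRC-/-ApoE-/- 2 or NPRC-/-ApoE-/- 3 there was again Sirpa, beside 6.50 and 6.70%. In the comparison of all 8 libraries the share in either direction was 13.6%. Grouped by genotype entry, 0 of the 9 genes had an unadjusted p under 0.05 in the edgeR test, beside 1.31% of all loci (269 of 20506), and 6 of the 9 estimates were lower.

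**Figure D2:**
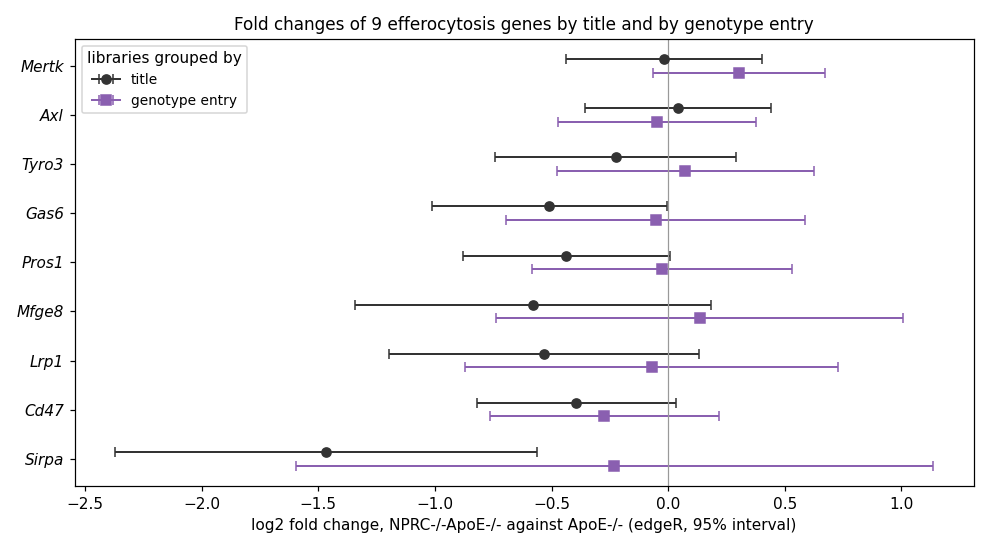
Log2 fold change of the 9 tested genes, NPRC-/-ApoE-/- against ApoE-/-, from edgeR with 95% intervals (x axis), with libraries grouped by title (black circles) and by genotype entry (purple squares). By title the intervals of Sirpa and Gas6 lie below 0, and by genotype entry all 9 intervals include 0.

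Mertk, Axl and Tyro3 are the TAM receptor kinases. MerTK is the main efferocytosis receptor of resting macrophages, Axl is also made by smooth muscle cells and fibroblasts, and Tyro3 is best known from the nervous system. Mertk (chr2:128698956-128802894, GRCm38, plus strand) lay at 7.09, 5.28, 7.27, 8.66 and 8.46 FPKM in ApoE-/- 1 to 5 and at 7.62, 6.52 and 7.39 in NPRC-/-ApoE-/- 1 to 3. All 3 NPRC-/-ApoE-/- libraries lay inside the ApoE-/- range. The log2 fold change was -0.02 ± 0.19 (SE, 95% interval -0.44 to 0.40, edgeR adjusted p = 0.979), and its sign turned in several alternatives. By genotype entry it was 0.30 (-0.07 to 0.67, unadjusted p = 0.0962). There the scaled log2 CPM of the 3 libraries entered as NPRC-/-ApoE-/- lay above those of the other 5, as for 0.639% of all loci, although in FPKM NPRC-/-ApoE-/- 1 (7.62) exceeded NPRC-/-ApoE-/- 3 (7.39).

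Axl (chr7:25757273-25788700, minus strand) lay at 58.8, 74.3, 80.3, 74.0 and 60.1 FPKM in ApoE-/- 1 to 5 and at 66.9, 77.2 and 68.9 in NPRC-/-ApoE-/- 1 to 3. Again the NPRC-/-ApoE-/- libraries fell inside the ApoE-/- range. The log2 fold change was 0.04 ± 0.18 by title (95% interval -0.36 to 0.44, edgeR adjusted p = 0.937) and -0.05 by genotype entry. A change of Axl or Mertk by less than about these intervals was not detectable with 8 libraries.

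Tyro3 (chr2:119797733-119818104, plus strand) was scarce, at 1.01, 1.31, 1.33, 1.44 and 0.90 FPKM in ApoE-/- 1 to 5 and 1.10, 0.85 and 1.10 in NPRC-/-ApoE-/- 1 to 3, from 407 to 896 counts per library. The groups overlapped, with NPRC-/-ApoE-/- 2 the lowest library and ApoE-/- 4 the highest. Its log2 fold change was -0.22 ± 0.23 by title (edgeR adjusted p = 0.681) and 0.07 by genotype entry.

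Within each library, Axl made up most of the summed TAM receptor FPKM, from 86.5 to 91.9% in the ApoE-/- libraries and from 88.5 to 91.3% in the NPRC-/-ApoE-/- libraries. Mertk took 6.53 to 12.2% and 7.71 to 10.1%, and Tyro3 took 1.29 to 1.71% and 1.01 to 1.45%. The groups overlapped in all 3 shares, by title and by genotype entry. Per kilobase of annotated exon the Mertk share was larger, 33.3 ± 5.84% (SD) in ApoE-/- and 32.3 ± 3.34% in NPRC-/-ApoE-/- libraries, with Axl still the most abundant of the TAM receptors in 8 of 8.

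Gas6 and Pros1 encode the soluble ligands of the TAM receptors. Protein S is also an anticoagulant of plasma. Gas6 is made in the vessel wall, and transcripts of both genes were present in these aortas. Gas6 (chr8:13465374-13494490, minus strand) lay at 118, 158.1, 144.9, 150.7 and 93.3 FPKM in ApoE-/- 1 to 5 and at 103.6, 78.8 and 95.5 in NPRC-/-ApoE-/- 1 to 3. ApoE-/- 1 to 4 all exceeded the 3 NPRC-/-ApoE-/- libraries, and ApoE-/- 5 lay below 2 of them. The fold change was 0.703 (log2 -0.51 ± 0.22, SE), with an unadjusted p of 0.0486 and an edgeR adjusted p of 0.364. The unadjusted p exceeded 0.05 without any one of the libraries ApoE-/- 2, 3, 4 or NPRC-/-ApoE-/- 1, 2, 3, and by genotype entry the log2 fold change was -0.05.

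Pros1 (chr16:62854307-62929346, plus strand) showed the same order of groups at a lower level. It lay at 15.6, 18.3, 19.4, 20.9 and 13.5 FPKM in ApoE-/- 1 to 5 and at 15.0, 11.99 and 11.7 in NPRC-/-ApoE-/- 1 to 3. As for Gas6, ApoE-/- 1 to 4 lay above the 3 NPRC-/-ApoE-/- libraries, and ApoE-/- 5 lay below NPRC-/-ApoE-/- 1. The log2 fold change was -0.44 ± 0.20 (95% interval -0.88 to 0.01), with an unadjusted p of 0.0527 and an edgeR adjusted p of 0.371, and by genotype entry it was -0.03. Gas6 accounted for 88.3 ± 0.835% (SD) of the summed Gas6 and Pros1 FPKM in the ApoE-/- libraries and for 87.7 ± 1.17% in the NPRC-/-ApoE-/- libraries, so the proportion of the ligands varied little while their levels did.

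Mfge8 encodes lactadherin, which bridges phosphatidylserine to αv integrins and is abundant in arterial smooth muscle. It lay (chr7:79133768-79149060, minus strand) at 74.0, 73.6, 116.7, 137.4 and 52.8 FPKM in ApoE-/- 1 to 5 and at 58.7, 65.4 and 59.0 in NPRC-/-ApoE-/- 1 to 3. The NPRC-/-ApoE-/- libraries stayed within a narrow range below ApoE-/- 1 to 4, and ApoE-/- 5 was the lowest of all 8. Its log2 fold change was -0.58 ± 0.34 by title (95% interval -1.34 to 0.18, unadjusted p = 0.12, edgeR adjusted p = 0.467) and 0.13 by genotype entry. Mfge8 stood on 2 rows, and the row with the smaller summed count was not used.

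Lrp1, a large endocytic receptor, also serves smooth muscle cells and fibroblasts. It lay (chr10:127538161-127621148, minus strand) at 168.6, 203.7, 266.9, 246.1 and 139.5 FPKM in ApoE-/- 1 to 5 and at 163.4, 127.2 and 133.8 in NPRC-/-ApoE-/- 1 to 3. ApoE-/- 1 to 4 exceeded the NPRC-/-ApoE-/- libraries here too, and ApoE-/- 5 lay below NPRC-/-ApoE-/- 1. The log2 fold change was -0.53 ± 0.29 by title (95% interval -1.20 to 0.13, unadjusted p = 0.102, edgeR adjusted p = 0.445) and -0.07 by genotype entry. Lrp1 also stood on 2 rows, of which the one with the smaller summed count was not used.

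Timd4 (chr11:46810800-46844332, plus strand) encodes Tim-4, a phosphatidylserine receptor of resident macrophages. It lay at 0.48, 1.15, 0.19, 0.37 and 0.27 FPKM in ApoE-/- 1 to 5 and at 0.27, 0.30 and 0.54 in NPRC-/-ApoE-/- 1 to 3, from 41 to 202 counts. ApoE-/- 2 alone exceeded 1 FPKM, and the groups overlapped. When all loci were fitted, its estimate was -0.34 ± 0.55 in log2 units (95% interval -1.58 to 0.89, edgeR adjusted p = 0.831).

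Cd47, the signal on healthy cells, is made by nearly all cell types. It lay (chr16:49800533-49915010, plus strand) at 24.2, 27.1, 31.2, 22.9 and 21.7 FPKM in ApoE-/- 1 to 5 and at 23.9, 17.7 and 16.1 in NPRC-/-ApoE-/- 1 to 3. NPRC-/-ApoE-/- 2 and 3 lay below all ApoE-/- libraries, and NPRC-/-ApoE-/- 1 lay among them. The log2 fold change was -0.39 ± 0.19 by title (95% interval -0.82 to 0.03, unadjusted p = 0.0659, edgeR adjusted p = 0.393) and -0.27 by genotype entry.

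Sirpa, the receptor of Cd47 on macrophages and other myeloid cells, had the largest fold change of the 9 tested genes. It lay (chr2:129592835-129632228, plus strand) at 18.2, 18.6, 25.2, 25.5 and 9.63 FPKM in ApoE-/- 1 to 5 and at 10.6, 6.36 and 4.32 in NPRC-/-ApoE-/- 1 to 3. ApoE-/- 1 to 4 were each well above the NPRC-/-ApoE-/- libraries, and ApoE-/- 5 was slightly below the highest of these. The mean was 19.4 ± 6.49 FPKM (SD, n = 5) in ApoE-/- and 7.10 ± 3.21 (SD, n = 3) in NPRC-/-ApoE-/- libraries. The fold change was 0.362 (95% interval 0.194 to 0.678, log2 -1.47 ± 0.40, SE), with an unadjusted p of 0.00521 and an edgeR adjusted p of 0.255. DESeq2 gave an adjusted p of 0.0107 at a log2 fold change of -1.46, limma voom with sample quality weights gave 0.0539, and over all alternatives the adjusted p lay between 0.0107 and 1.00. The unadjusted p stayed under 0.05 in each leave-out, with log2 fold changes from -1.85 to -1.21.

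By genotype entry the log2 fold change of Sirpa was -0.23 (95% interval -1.60 to 1.13, unadjusted p = 0.71), since both the lowest and the highest library then stood in 1 group. Among the 4 libraries without a conflict of labels it was -2.15, from 3 against 1 library and with no test. The related Sirpb1 genes could share reads with Sirpa. Sirpb1c, Sirpb1b and Sirpb1a lay at 0.12 to 1.79, 0.06 to 0.99 and 0.03 to 1.33 FPKM.

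The ratio of Cd47 to Sirpa FPKM was 1.33, 1.45, 1.24, 0.898 and 2.25 in ApoE-/- 1 to 5 and 2.25, 2.78 and 3.72 in NPRC-/-ApoE-/- 1 to 3. It was thus higher in the NPRC-/-ApoE-/- libraries than in ApoE-/- 1 to 4, and ApoE-/- 5 and NPRC-/-ApoE-/- 1 were level. Per kilobase of annotated exon the same ratio was 0.434 ± 0.151 (SD) in ApoE-/- and 0.883 ± 0.227 in NPRC-/-ApoE-/- libraries, so whether Cd47 or Sirpa was the more abundant depended on the length used, while the order of the libraries did not. By genotype entry the groups overlapped, with means of 1.81 and 2.29 FPKM over FPKM.

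**Figure D3:**
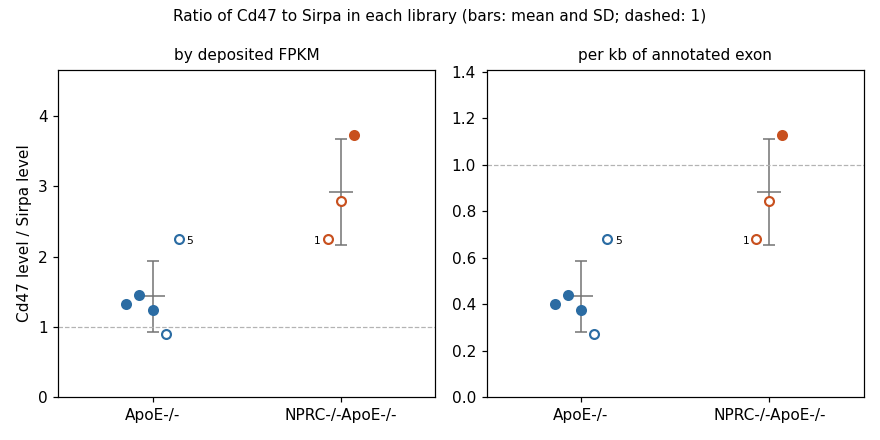
Ratio of Cd47 to Sirpa in each library by title, from deposited FPKM (left) and per kilobase of annotated exon (right), with mean and SD as bars, open circles for libraries whose labels conflict and a dashed line at 1. By FPKM the ratio runs from 0.898 to 2.25 in ApoE-/- and from 2.25 to 3.72 in NPRC-/-ApoE-/- libraries.

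Macrophage markers were lower by title as well. These were Cd68, Adgre1, Csf1r, Lyz2, Itgam, Fcgr1, Aif1, Mrc1, Ptprc and Laptm5. All 10 of them had lower estimates in NPRC-/-ApoE-/- libraries, with a median log2 fold change of -1.02. At an unadjusted p under 0.05, 6 of them were lower, beside 7.13% of all loci. Their summed level was 1709 to 4357 CPM in ApoE-/- and 1095 to 2398 in NPRC-/-ApoE-/- libraries, and none was at 0 throughout. Their mean log2 CPM was 6.62, 6.89, 7.36, 7.19 and 6.17 in ApoE-/- 1 to 5 and 6.47, 5.33 and 5.42 in NPRC-/-ApoE-/- 1 to 3, so ApoE-/- 5 and NPRC-/-ApoE-/- 1 again lay next to each other. By genotype entry the median log2 fold change of the markers was -0.25, and the groups overlapped. There 0 markers had an unadjusted p under 0.05, beside 1.31% of all loci. Cd68 stood on a row shared with several genes, among them Senp3 and Eif4a1. Itgam shared its row with Gm49368 and Gm45700, and Mrc1 with Mir511. The values of these rows, which enter the marker mean, may include reads of those genes. The part of macrophage content in the values of Sirpa, Lrp1 and the ligands was not tested.

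The marker mean itself was 6.84 in ApoE-/- and 5.74 in NPRC-/-ApoE-/- libraries. A gene with a smaller decrease is therefore higher relative to the markers, and the differences below restate the fold changes in this form. Sirpa minus the macrophage marker mean was 1.81, 1.60, 1.70, 1.87 and 1.32 log2 units in ApoE-/- 1 to 5 and 1.23, 1.64 and 1.09 in NPRC-/-ApoE-/- 1 to 3. Its titled groups overlapped, with means of 1.66 and 1.32. Lrp1 minus the marker mean was 5.15 to 5.31 in the ApoE-/- libraries and 5.30 in NPRC-/-ApoE-/- 1, against 6.09 and 6.17 in NPRC-/-ApoE-/- 2 and 3. Axl minus the marker mean was 1.75 to 2.34 in the ApoE-/- libraries and 2.26, 3.61 and 3.45 in NPRC-/-ApoE-/- 1 to 3, and for Mertk the values were 0.19 to 1.55 and 1.16, 2.09 and 2.27. Among the 10 genes, Tyro3 minus the marker mean was the only such difference without overlap between the titled groups (-3.92 to -3.48 against -3.42 to -2.26), at its low level. The share of all loci without overlap in this difference was not computed, so the gap cannot be read as a trait of Tyro3. By genotype entry the groups overlapped for all 10 genes.

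**Figure D4:**
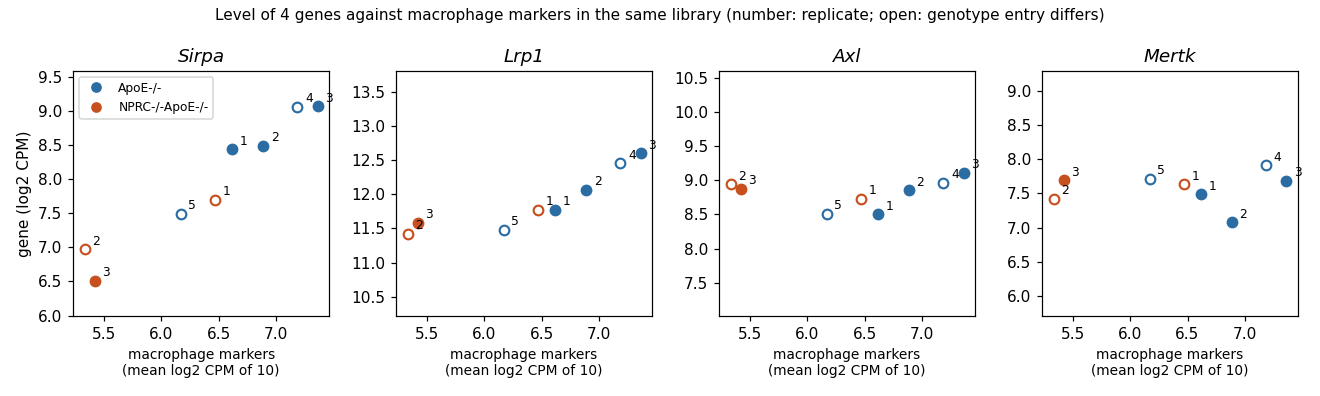
Log2 CPM of Sirpa, Lrp1, Axl and Mertk (y axes, all spanning the same number of log2 units) against the mean log2 CPM of 10 macrophage markers in the same library (x axis). Numbers give the replicate, blue the ApoE-/- and orange the NPRC-/-ApoE-/- titles and open circles the conflicting labels. Sirpa and, over a narrower range, Lrp1 tend to be lower in libraries with lower markers. Axl and Mertk in NPRC-/-ApoE-/- 2 and 3 lie within the range of the other libraries.

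Markers of other cells of the wall also differed. At an unadjusted p under 0.05 by title, 7.13% of all loci were lower and 6.51% higher. Smooth muscle markers, of which Smtn (log2 fold change 0.99, unadjusted p = 0.0025) and Cnn1 (0.66, unadjusted p = 0.00342) had the smallest p, were higher in 10 of 10, with 9 at an unadjusted p under 0.05 and a summed level of 6594 to 8734 CPM in ApoE-/- and 8436 to 16158 in NPRC-/-ApoE-/- libraries. Fibroblast markers, led by Dpt (-0.86) and Dcn (-0.84), were lower in 8 of 8, with 2 at an unadjusted p under 0.05. Foamy macrophage markers were lower in 6 of 6, with 3 (Fabp5 -1.35, Gpnmb -1.20 and Ctsd -1.03, the latter on a row shared with Ifitm10). Resident adventitial macrophage markers were lower in 2 of 6, both at an unadjusted p under 0.05 (Mrc1 -0.63 and Folr2 -0.88). Endothelial markers had 0 of 8, white adipocyte markers 0 of 5 and brown fat markers 0 of 6 at that p. Estimates were lower in 6 of 8 endothelial and 2 of 5 white adipocyte markers. Brown fat markers were higher in 6 of 6 (median 0.45, and -0.09 by genotype entry). Their summed level varied widely between libraries, at 286 to 1115 CPM in ApoE-/- and 840 to 1154 in NPRC-/-ApoE-/-. For white adipocyte markers it was 269 to 974 and 515 to 777 CPM. Smallest in these were Cdh5 (-0.25) and Cldn5 (-0.55), Retn (-0.40) and Adipoq (-0.27), and Elovl3 (0.73) and Ppargc1a (0.67). By genotype entry 0 genes of these lists had an unadjusted p under 0.05, beside 1.31% of all loci. The medians were then 0.17 for smooth muscle (0.73 by title), 0.03 for foamy macrophage (-1.24 by title) and -0.04 for fibroblast markers (-0.75 by title). The part of these cell types in the 10 genes was not tested, and 0 markers of any list passed the edgeR test after adjustment.

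Among 14 other receptors for dying cells, 10 were tested, with a median log2 fold change of -0.26. At an unadjusted p under 0.05, 4 of them were lower and 0 higher, beside 7.13% and 6.51% of all loci. Cd300a, an inhibitory myeloid receptor of phosphatidylserine, lay at 4.80 to 8.50 FPKM in ApoE-/- and 2.02 to 3.66 in NPRC-/-ApoE-/- libraries without overlap (log2 fold change -1.26 ± 0.26, edgeR adjusted p = 0.221). Of all loci, 3.69% lay lower without overlap between the titled groups. Havcr2, which encodes Tim-3, had -1.32 ± 0.51, and Cd300lf, on a row shared with Cd300ld, had -1.11 ± 0.43. Also lower at that p was Stab1 (-0.38 ± 0.16, edgeR unadjusted p = 0.0427). The tested integrins Itgav, Itgb3 and Itgb5 had log2 fold changes of -0.15, 0.25 and 0.15.

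Of 10 other bridging and surface molecules, 9 were tested and all 9 were lower (median -0.88). At an unadjusted p under 0.05, beside 7.13% of all loci, 3 were lower. These were the chains of C1q, a complement opsonin made by macrophages. C1qa lay at 50.2 to 142.8 FPKM in ApoE-/- and 23.7 to 54.1 in NPRC-/-ApoE-/- libraries (log2 fold change -1.37 ± 0.43, edgeR adjusted p = 0.285), and C1qb and C1qc had -1.45 ± 0.57 and -1.47 ± 0.57. Calr, the calreticulin seen by Lrp1, had -0.04 ± 0.19.

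Of 8 other genes that restrain engulfment, 7 were tested, with a median of -0.77. At an unadjusted p under 0.05, 4 of them were lower, beside 7.13% of all loci. B2m, the light chain of MHC class I, lay at 156.7 to 190.0 FPKM in ApoE-/- and 89.3 to 117.1 in NPRC-/-ApoE-/- libraries without overlap (log2 fold change -0.77 ± 0.14, edgeR adjusted p = 0.191). Cd24a, which encodes the ligand CD24, likewise did not overlap (5.01 to 8.54 against 2.05 to 4.51 FPKM, -0.93 ± 0.28). Of all loci, 3.69% lay lower without overlap. Ptpn6, which encodes the phosphatase SHP-1 that acts downstream of Sirpa, had -1.02 ± 0.40. Ptpn11, which encodes SHP-2, the other phosphatase that acts downstream of Sirpa, had 0.18 ± 0.11 (6.47 to 7.11 FPKM in NPRC-/-ApoE-/- and 5.31 to 6.78 in ApoE-/- libraries).

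All 16 engulfment and phagosome genes were tested (median -0.29). At an unadjusted p under 0.05, 5 of them were lower and 0 higher, beside 7.13% and 6.51% of all loci. Those named by rule were Dock2 (-0.93 ± 0.32), a Rac activator of leukocytes, its target Rac2 (-1.06 ± 0.39), the exchange factor Vav1 (-1.06 ± 0.40) and Cybb (-1.09 ± 0.44), the catalytic subunit of the phagocyte NADPH oxidase. The fifth, Rhog (-0.63 ± 0.23), a more widely expressed GTPase of the engulfment pathway, was the only one of the 5 without overlap between the titled groups (15.2 to 25.3 against 10.4 to 13.6 FPKM). Of all loci, 3.69% lay lower without overlap. Another 10 genes that regulate these receptors by shedding, chaperoning or lipid sensing were all tested (median -0.23). At that p, 1 was lower and 0 higher, beside the same shares of all loci. It was Nr1h3 (-0.47 ± 0.16), which encodes LXRα and shares its row with Madd. The next smallest p was that of the shedding protease Adam10 (-0.38 ± 0.19, unadjusted p = 0.0713). Adam17, the protease that sheds MerTK, had -0.28 ± 0.17. By genotype entry 0 genes of these 5 lists had an unadjusted p under 0.05, beside 1.31% of all loci, with medians from -0.14 to -0.02.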

How the data were processed

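RNA-seq of 8 whole aortas was analysed from a single table of the authors. They removed low-quality bases, mapped reads with HISAT2 and assembled transcripts with StringTie, and the submitters' processing notes name cutadapt 1.9, FastQC and GRCm38. The authors deposited raw counts per assembled locus and FPKM values, which they normalized to transcript length and mapped fragments. The counter and its strand setting are not given in the sources used here, so the antisense genes Gm14011 (Mertk) and Gm16217 (Lrp1) and the opposite-strand gene Tmem255b (Gas6), at 1.06 to 3.68, 1.31 to 2.17 and 1.19 to 1.67 FPKM on rows of their own, could share reads with these loci. Every column of values belonged to a library (0 others).

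The 20506 of 48607 loci that reached 1 FPKM in 3 or more libraries were tested by title with R 4.3.3 and edgeR 4.0.16 (TMM scaling, quasi-likelihood test, Benjamini-Hochberg adjustment over all loci), with no covariate. The p-values measure the spread between these 5 and 3 samples, and their number limits the precision (biological coefficient of variation 0.327). Depth was 62969165 to 86693276 counts per library. The closest pair of libraries had a mean chi-square of 140.2 per locus, so none was a repeat of another. Log2 CPM used a prior count of 2. Alternatives used limma 3.58.1 (pseudocounts 1 and 0.1 on log2(FPKM + pseudocount), and voom), DESeq2 1.42.0, other filters (none, or a mean of at least 5 FPKM), other scalings, the genotype entry and leave-outs. The edgeR test was also run on counts simulated from the dispersions fitted to these data and the titled groups. Such counts cannot speak to the conflicting labels or to differences in cell content.

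Shares and ratios are descriptions without a test. Levels per kilobase of annotated exon used merged GENCODE M21 exons and were added after the data were seen. The genes and lists were chosen with earlier results of these data known. Of each other list, the 2 genes with the smallest p by title and those meeting the fold and p criterion were named, at most 4 a list. Exceptions named after their values were seen are Stab1, Itgav, Itgb3, Itgb5, Calr, Ptpn11, Rhog and Adam17. One gene of the list of receptor regulators is not reported here.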

Additional observations from a re-analysis of the deposited data

Results flagged for a closer look

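Among 20 sets of 5 libraries checked for one that stands apart (the 10 genes, by title and by genotype entry), 1 was noted, which is the number that chance gives at 1 in 20. Among the 5 libraries entered as ApoE-/-, Mfge8 in ApoE-/- 3 had a log2 CPM of 9.56 (116.7 FPKM), and the nearest of the others had 8.75.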

How the results depend on the processing

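The count of genes with an unadjusted p under 0.05 was 2 by title (beside 13.6% of all loci), 0 by genotype entry (1.31%), 5 with limma voom and sample quality weights (26.4%) and 1 with median-ratio scaling (13.6%), and it ran from 1 to 6 when 1 library was left out (6.50 to 21.6%). After adjustment DESeq2 called 1 gene and the other alternatives that gave a test called 0. The number of genes with a lower estimate stayed between 6 and 9 of those tested in every alternative. Same-numbered libraries gave no sign of pairing, as their deviations from the group means had correlations of -0.31, -0.11 and 0.01. With 3 libraries a group, whose deviations balance each other, these values cannot exclude a pairing. With the replicate number as a block in the libraries numbered 1 to 3, 1 gene was called (beside 8.84% of all loci), against 4 in the same libraries without the block (12.9%). The near-zero estimate of Mertk turned to 0.30 by genotype entry, 0.28 in the 4 libraries with matching labels, 0.066 when loci needed a mean of 5 FPKM, 0.16 with the block and 0.15 without it, and ran from -0.12 to 0.089 in leave-outs. That of Axl turned to -0.046 by genotype entry and ran from -0.025 to 0.14 in leave-outs, and those of Tyro3 and Mfge8 turned to 0.073 and 0.13 by genotype entry. The cause of these changes was not tested. The comparisons are limited by 3 libraries in 1 group and by labels that conflict in both.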
